A study of Mus musculus with 16 samples.

Results

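The phagocyte NADPH oxidase was followed through 5 genes that encode its subunits and its GTPase, Cybb, Cyba, Ncf1, Ncf4 and Rac2, chosen by name and found by symbol among the 15080 genes of the tumor table and the 13344 genes of the stroma table. All 5 were listed once in each table and had a mean normalized count over 10, the filter for testing. RNA was sequenced from bone marrow of untreated C57BL/6J mice, either wild-type (WT) or carrying a constitutive knock-out of the cytokine IL-6 (IL-6 KO), 6 to 8 weeks of age, 8 days after tail vein injection of 500000 B-cell acute lymphoblastic leukemia (B-ALL) cells. The leukemic cells were one BCR-ABL+, Arf-/- line marked with mCherry and were the same in all groups, so the genotype in each comparison is that of the host. After lysis of red cells, mCherry+ cells were sorted as tumor and mCherry- cells as stroma, which here means every marrow cell without the mark, and each of the 4 groups (WT tumor, IL-6 KO tumor, WT stroma and IL-6 KO stroma) had 4 libraries. The comparison asks how the absence of IL-6 in the host changed these genes in each sorted population before chemotherapy.

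The oxidase carries electrons from NADPH across a membrane to oxygen and so makes superoxide, which neutrophils and macrophages direct at ingested microbes. Its membrane core is a cytochrome of a catalytic subunit encoded by Cybb and a stabilizing partner encoded by Cyba. In resting cells regulatory subunits, among them those encoded by Ncf1 and Ncf4, wait in the cytosol, and on stimulation they are phosphorylated, move to the membrane and join a Rac GTPase, which in blood cells is mainly the product of Rac2. In bone marrow these genes are expressed in maturing neutrophils and in monocytes, among other cells, and inherited loss of the oxidase causes chronic granulomatous disease.

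The sums of normalized counts ranged from 38817792 to 44552085 in WT tumor and from 47267047 to 55592959 in IL-6 KO tumor, without overlap. They ranged from 33973016 to 44191950 in IL-6 KO stroma and from 8805689 to 17470735 in WT stroma. The read depth of a library is not given by these normalized values. The signal recognition particle RNA Rn7s1 took 3.40% to 4.11% of the sums in WT tumor and 5.40% to 6.24% in IL-6 KO tumor. It took 10.9% to 79.0% of the stroma sums, and in IL-6 KO stroma library 4 a further transcript, CT010467.1, took 61.5%. The spread between libraries of one group was wider in stroma (median residual SD 0.857 on the log2 scale) than in tumor (0.212). The 9 B-lineage markers summed to 125482 to 141313 in tumor and to 454 to 1457 in stroma, in tables that were normalized separately, and the 7 erythroid markers summed to 40494 to 174761 in stroma. The niche markers Cxcl12, Lepr and Cdh5 were not analysed here in stroma, nor were Cd3d, Cd3e, Cd3g and Gzma in either table. The labels do not tie libraries to single animals, and p-values therefore measure only the spread between these libraries.

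On GRCm38, Cybb lies on chromosome X (9435252 to 9487771, minus strand, 13 exons in its main transcript) and Cyba on chromosome 8 (122424776 to 122432930, minus strand, 6 exons). Ncf1 lies on chromosome 5 (134220053 to 134229625, minus strand, 11 exons). Ncf4 (78244801 to 78262580, plus strand, 10 exons) and Rac2 (78559167 to 78572783, minus strand, 7 exons) are both on chromosome 15, 296.6 kb apart. No transcript of another gene matched any of the 5 at 97% identity over 150 nucleotides or more. Cyba overlaps Gm20388 and Ncf1 overlaps Gtf2ird2 on the opposite strand, and the library kit was directional.

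Promoters of 3 of the 5 genes were found in RefSeq (GRCm38.p6), and the 250 bases before each transcription start are shown because Cyba and Ncf1 were called higher in IL-6 KO tumor and Cybb was not called. The promoters of Ncf4 and Rac2 were not matched. For Cybb the RefSeq start lies inside the gene span given above (9435252 to 9487771) and not at its 5′ end. Capitals mark matches, on either strand, to the element read by interferon regulatory factors (GAAA, any 2 bases, then GAAA again) or to GGGCGG, the Sp1 box, and each sequence runs 5′ to 3′ along the gene's own (minus) strand.
Cybb, chrX:9469325-9469574: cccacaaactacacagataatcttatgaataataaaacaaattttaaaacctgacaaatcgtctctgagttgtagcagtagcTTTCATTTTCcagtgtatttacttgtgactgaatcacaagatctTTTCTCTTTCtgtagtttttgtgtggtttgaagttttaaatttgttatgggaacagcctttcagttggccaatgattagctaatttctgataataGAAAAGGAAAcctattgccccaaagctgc
Cyba, chr8:122432941-122433190: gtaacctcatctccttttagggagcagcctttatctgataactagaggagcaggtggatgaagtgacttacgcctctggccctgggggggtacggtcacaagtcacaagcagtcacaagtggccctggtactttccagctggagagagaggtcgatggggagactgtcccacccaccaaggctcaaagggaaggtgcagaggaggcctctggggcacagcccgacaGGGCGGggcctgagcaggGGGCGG
Ncf1, chr5:134229626-134229875: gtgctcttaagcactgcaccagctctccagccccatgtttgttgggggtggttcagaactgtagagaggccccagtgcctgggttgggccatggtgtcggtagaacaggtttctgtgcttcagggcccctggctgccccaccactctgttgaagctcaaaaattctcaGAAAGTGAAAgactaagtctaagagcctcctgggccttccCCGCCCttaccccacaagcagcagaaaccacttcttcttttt
The Cybb promoter held 3 matches to the interferon regulatory factor element and the Ncf1 promoter 1, and Cyba held none. Windows of 300 bases, which add the first 50 bases of the transcript, held this element in 3.44% of 32851 promoters. GGGCGG occurred 2 times in Cyba, 1 time in Ncf1 and not in Cybb, against 35.7% of all promoters. GAGGAA, the core bound by the Ets factor PU.1, was found in 1 of these 3 promoters, that of Cybb, 1 time, starting 10 bases after the transcription start, against 28.3% of all promoters. The C/EBP palindrome TTGCGCAA (0.183% of promoters), its looser form TTNNGNAA (40.7%) and TATAAA (13.6%) had no match in the 3 windows. These are matches of letters on both strands and not measured binding sites.

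In tumor, 3 of the 5 oxidase genes were higher in IL-6 KO than in WT mice and none was lower at a limma adjusted p under 0.05. Over all 14493 genes tested in tumor, 10.6% were called higher and 9.16% lower. The 3 genes encode the cytochrome's stabilizing chain (Cyba), the organizing subunit (Ncf1) and the GTPase (Rac2), with ratios of 1.54, 1.71 and 1.26 on the log2(normalized count + 1) scale. The catalytic chain Cybb did not pass the test, and Ncf4 pointed the other way without passing it. Reads from fewer cells of a type and from less RNA per cell cannot be told apart in these bulk libraries.

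**Figure D1:**
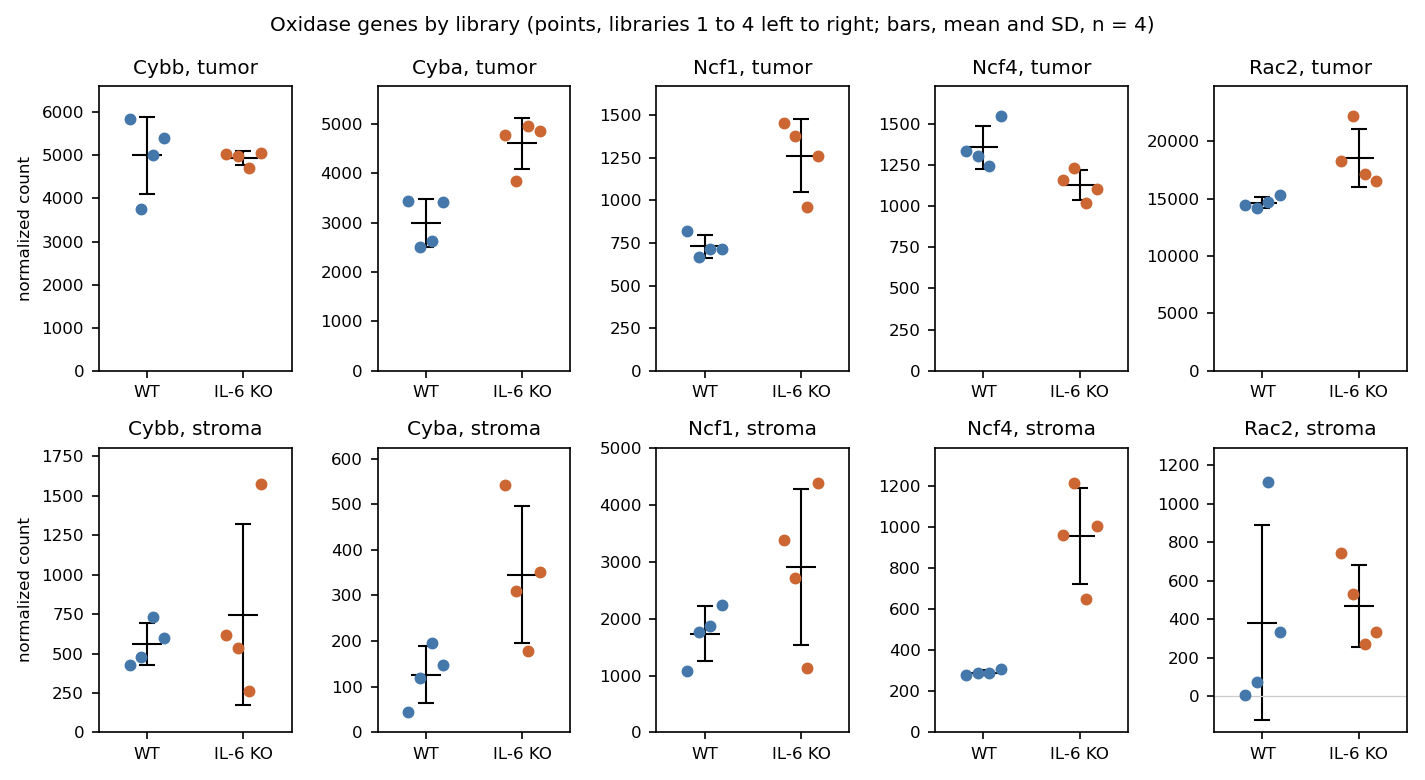
Normalized counts (vertical axis) of the 5 oxidase genes in tumor (upper row) and stroma (lower row), with 1 point per library, WT hosts in blue and IL-6 KO hosts in orange, and bars for the mean and SD (n = 4). In tumor, all IL-6 KO libraries lay above all WT libraries for Cyba, Ncf1 and Rac2 and below them for Ncf4. In stroma only Ncf4 separated the genotypes, in the upward direction. Separation of this kind held for 13.6% (higher) and 12.0% (lower) of all genes tested in tumor and 2.54% (higher) in stroma.

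Cyba, whose product holds the catalytic chain in the membrane and docks the organizing subunit, had normalized counts of 3427, 2512, 2633 and 3408 in WT tumor libraries 1 to 4 and of 4769, 3849, 4947 and 4844 in IL-6 KO tumor. Every IL-6 KO library was above every WT library, as for 13.6% of all genes tested in tumor, and IL-6 KO library 2 sat below the other 3 of its group. The mean went from 2995 ± 491 to 4602 ± 507 (SD, n = 4 each), which is 0.63 on the log2 scale (standard error 0.13, 95% interval 0.35 to 0.91, limma adjusted p = 0.00949).

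Ncf1 encodes the subunit whose phosphorylation starts assembly of the complex. Its normalized counts were 821, 667, 715 and 713 in WT tumor and 1453, 1375, 962 and 1257 in IL-6 KO tumor. The groups did not overlap, as for 13.6% of all genes tested in tumor in this direction. IL-6 KO library 3 was the lowest of its group and nearest to WT. Ncf1 had the largest difference of the 5 genes in tumor, from 729 ± 65.1 to 1262 ± 215 (SD, n = 4 each), or 0.78 on the log2 scale (standard error 0.13, 95% interval 0.48 to 1.07, limma adjusted p = 0.00524).

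Rac2, the blood cell Rac GTPase that also steers the actin cytoskeleton, had normalized counts of 14429, 14197, 14660 and 15324 in WT tumor and of 18274, 22141, 17174 and 16550 in IL-6 KO tumor. Its WT libraries lay within a ratio of 1.08 of each other. All IL-6 KO libraries were above them, as for 13.6% of all genes tested in tumor, with library 2 highest. The log2 fold change was 0.33 (standard error 0.09, 95% interval 0.13 to 0.53, limma adjusted p = 0.0291). This call was lost under quantile normalization (adjusted p = 0.0611) and on leaving out WT library 1, 2 or 3 or IL-6 KO library 1 (limma adjusted p from 0.0576 to 0.0721).

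Cybb, the electron-carrying chain, had normalized counts of 5838, 3749, 5013 and 5402 in WT tumor and of 5031, 4979, 4710 and 5064 in IL-6 KO tumor. WT library 2 was below and WT library 1 above every IL-6 KO library, so the WT range enclosed that of IL-6 KO. The means of 5001 ± 900 and 4946 ± 161 (SD, n = 4 each) gave a log2 fold change of 0.00 (95% interval -0.27 to 0.27, limma adjusted p = 0.990), whose sign turned under quantile normalization (-0.062) and which moved to 0.26 with library trends removed (adjusted p = 0.244).

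Ncf4 encodes a subunit that binds a phosphoinositide of the phagosome membrane. It had normalized counts of 1332, 1306, 1240 and 1544 in WT tumor and of 1161, 1230, 1019 and 1102 in IL-6 KO tumor. All 4 IL-6 KO libraries were below all 4 WT libraries, by a narrow gap, as was so for 12.0% of all genes tested in tumor. The log2 fold change of -0.26 (standard error 0.09, 95% interval -0.47 to -0.05) had an adjusted p of 0.0768 by limma. Ncf4 passed, as lower, with limma array weights (-0.29, adjusted p = 0.0294) and once trends of library values with transcript GC and length had been taken out (-0.46, adjusted p = 0.00756).

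Markers of some other marrow cells differed between the same tumor libraries. None of the tested erythroid (5), T and NK cell (3), megakaryocyte (2) or mesenchymal and endothelial (5) markers was called. Over all genes tested in tumor, 10.6% were called higher. The 12 neutrophil markers summed to 4707 to 5320 in WT tumor and to 17064, 17763, 7230 and 15586 in IL-6 KO tumor libraries 1 to 4, and 9 of the 12 were called higher. All 5 neutrophil precursor markers were called higher (summed level 282 to 426 in WT and 785 to 1679 in IL-6 KO), as were 5 of 10 monocyte and macrophage markers (2032 to 2476 and 3175 to 7065). Ngp, a neutrophil granule protein gene, rose from 1032 ± 77.4 to 4149 ± 1384 and Mpo, the myeloperoxidase gene, from 202 ± 47.7 to 805 ± 230 (SD, n = 4 each, limma adjusted p = 0.00175 and 0.00161). IL-6 KO library 3 had the lowest neutrophil sum of its group and the lowest Ncf1, Ncf4 and Cybb of its group, but the highest Cyba. No neutrophil, precursor or monocyte marker was at 0 in all libraries. The part of these cells in the oxidase results was not tested.

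**Figure D2:**
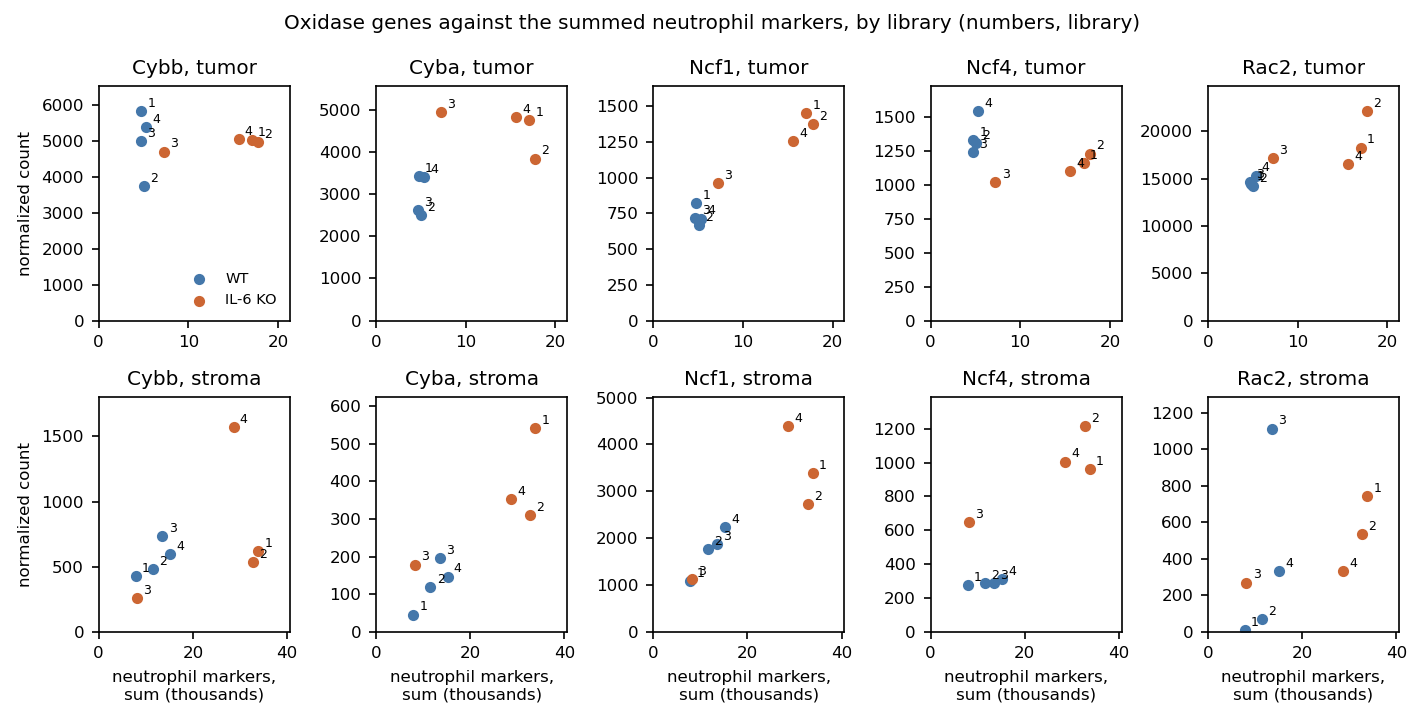
Normalized counts of each oxidase gene (vertical axes) against the summed normalized counts of 12 neutrophil markers (horizontal axes), tumor above and stroma below, with 1 numbered point per library, WT hosts in blue and IL-6 KO hosts in orange. IL-6 KO tumor library 3, with a marker sum of 7230, had the lowest Ncf1 (962) and the highest Cyba (4947) among the IL-6 KO tumor libraries.

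In stroma, none of the 5 oxidase genes was called at a limma adjusted p under 0.05. Only 0.00820% of the 12202 genes tested in stroma was called, a single gene. All 5 log2 fold changes were above 0, as were 49.4% of all stroma values, and their median was 1.51 against -0.01 over all genes tested. Unadjusted limma p-values were under 0.05 for Ncf4 and Cyba, as for 9.15% of all genes.

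Ncf4 had normalized counts of 278, 289, 287 and 311 in WT stroma and of 961, 1214, 647 and 1006 in IL-6 KO stroma. The WT libraries differed by a ratio of at most 1.12, and every IL-6 KO library was above them, which held in this direction for 2.54% of all stroma genes. The means were 291 ± 14.1 and 957 ± 234 (SD, n = 4 each), or 1.68 on the log2 scale (standard error 0.30, 95% interval 1.02 to 2.34) with an unadjusted limma p of 0.00011 and an adjusted p of 0.297. With limma array weights the value was 1.81 (adjusted p = 0.0404), and no other alternative called it.

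Cyba had normalized counts of 45.3, 119, 196 and 147 in WT stroma and of 543, 309, 179 and 353 in IL-6 KO stroma. IL-6 KO library 3 fell below WT library 3, and the other 3 IL-6 KO libraries were above all WT libraries. The log2 fold change was 1.51 (95% interval 0.42 to 2.61, limma adjusted p = 0.434).

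Ncf1 had normalized counts of 1080, 1757, 1872 and 2232 in WT stroma and of 3383, 2718, 1128 and 4388 in IL-6 KO stroma, again with IL-6 KO library 3 inside the WT range and the other 3 above it. The log2 fold change was 0.63 (95% interval -0.26 to 1.52, limma adjusted p = 0.661). It was 0.38 without IL-6 KO library 4 and 1.03 without IL-6 KO library 3.

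Cybb had normalized counts of 430, 481, 735 and 596 in WT stroma and of 621, 536, 260 and 1573 in IL-6 KO stroma. Library 4 alone was above the WT range and library 3 below it. The log2 fold change of 0.15 (95% interval -0.87 to 1.16, limma adjusted p = 0.953) became -0.31 without IL-6 KO library 4.

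Rac2 had normalized counts of 8.06, 71.2, 1114 and 333 in WT stroma and of 743, 534, 269 and 331 in IL-6 KO stroma. The WT libraries spanned a ratio of 138 and enclosed the IL-6 KO libraries. The log2 fold change was 1.80 (95% interval -0.58 to 4.18, limma adjusted p = 0.635). It was 0.54 without WT library 1 and 2.85 without WT library 3.

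WT stroma library 1 and IL-6 KO stroma library 3 were the lowest of their groups for all 5 oxidase genes. The same libraries had the lowest neutrophil marker sums of their groups, 7865 among 7865 to 15206 in WT and 8196 among 8196 to 33821 in IL-6 KO stroma. They were also lowest for neutrophil precursor markers (230 in WT, 151 in IL-6 KO) and for monocyte and macrophage markers (915 and 1354). WT library 1 was lowest for B-lineage (618) and megakaryocyte (49.6) markers too, but not for erythroid markers (104297, against 101730 in library 3). None of the 12 neutrophil markers was called in stroma by limma (4 had an unadjusted p under 0.05), and 11 of 12 pointed higher in IL-6 KO (median log2 fold change 0.74). IL-6 KO stroma library 3 also had the highest erythroid marker sum, 174761. The part of the cell mixture in these values was not tested.

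Divided by transcript length, the 5 genes stood in a different order in each sorted population. In WT tumor, Rac2 had 4823 ± 160 normalized counts per kilobase (SD, n = 4), Cyba 4025 ± 659, Cybb 1052 ± 189, Ncf4 926 ± 89.9 and Ncf1 268 ± 23.9. The library ranges of Cybb and Ncf4 overlapped, and the other neighbours in this order did not. In IL-6 KO tumor, Cyba (6186 ± 682) and Rac2 (6101 ± 825) overlapped at the top, followed without overlap by Cybb (1041 ± 33.9), Ncf4 (770 ± 61.3) and Ncf1 (464 ± 79.2).

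In stroma the order began with Ncf1, at 638 ± 177 normalized counts per kilobase in WT and 1067 ± 503 in IL-6 KO mice (SD, n = 4 each). Below it in WT stroma, Ncf4 (199 ± 9.64), Cyba (170 ± 84.5), Rac2 (126 ± 167) and Cybb (118 ± 28.5) overlapped from each neighbour to the next, and only the step from Ncf1 to Ncf4 was free of overlap. In IL-6 KO stroma, Ncf1, Ncf4 (654 ± 160), Cyba (465 ± 202), Cybb (157 ± 120) and Rac2 (155 ± 70.7) overlapped at every step. The 2 tables were normalized separately, so only ranks are set across them. Among all genes tested and ranked per kilobase, Ncf1 stood at percentile 54.1 in WT tumor and 97.2 in WT stroma, and Rac2 at 96.8 and 83.1. In the same order, Cyba stood at 96.0 and 88.1, Cybb at 84.0 and 82.1 and Ncf4 at 81.7 and 89.9.

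**Figure D3:**
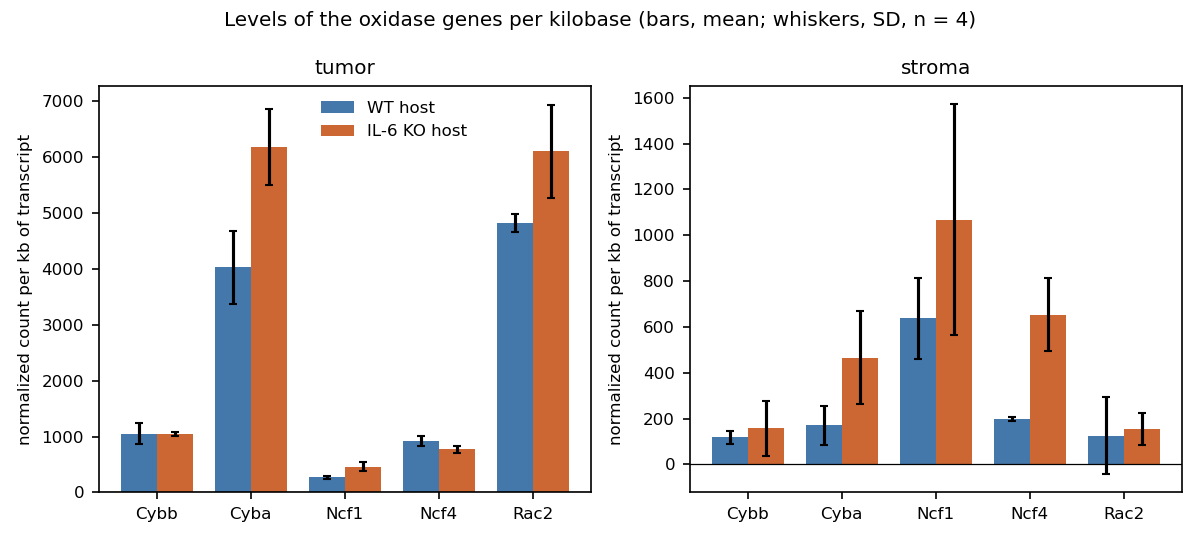
Mean normalized count per kilobase of transcript (vertical axes) of the 5 oxidase genes in tumor (left) and stroma (right), with WT hosts in blue, IL-6 KO hosts in orange and whiskers for the SD (n = 4). Cyba and Rac2 were the highest of the 5 in tumor and Ncf1 in stroma, and the SD of Rac2 in WT stroma (167) exceeded its mean (126).

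Ratios of levels per kilobase within a library are given as a description. Cyba over Cybb, the 2 chains of the cytochrome, was 3.36 to 4.28 in WT tumor and 4.94 to 6.71 in IL-6 KO tumor, without overlap. Ncf1 over Ncf4 was 0.248 to 0.332 in WT tumor and 0.508 to 0.674 in IL-6 KO tumor. These ranges could not overlap, since every IL-6 KO library was above WT for Ncf1 and below it for Ncf4. In stroma this second ratio was 2.09 to 3.86 in WT and 0.938 to 2.35 in IL-6 KO mice, overlapping and with its mean on the other side, 3.18 against 1.60. Cyba over Cybb in stroma was 0.674 to 1.70 in WT and 1.43 to 5.58 in IL-6 KO mice.

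Among the partners of the oxidase, 10 of the 16 listed genes were tested in tumor, of which 1 was called higher and 3 lower. Of all genes tested in tumor, 10.6% were called higher and 9.16% lower. The median log2 fold change of the partners was -0.01, against -0.01 over all genes tested. Cybc1, the chaperone of the cytochrome, had a log2 fold change of 0.36 (95% interval 0.11 to 0.61, limma adjusted p = 0.0503).

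Rac1, the widely expressed relative of Rac2, had normalized counts of 11778, 11950, 11757 and 11546 in WT tumor and of 7863, 9087, 9527 and 8647 in IL-6 KO tumor. All IL-6 KO libraries were lower, as for 12.0% of all genes tested in tumor. The log2 fold change of Rac1 was -0.42 (limma adjusted p = 0.00395). Rac1 overlaps Daglb, which lies on the opposite strand, and their transcripts matched over 2309 nucleotides in a search of both strands. The part of this overlap in the Rac1 counts was not tested. Rac2 over Rac1 per kilobase was 1.63 to 1.82 in WT and 2.47 to 3.34 in IL-6 KO tumor. Both genes separated the genotypes in opposite directions, so these ranges could not overlap.

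Rap1a, a small GTPase that was purified together with the cytochrome, fell from 2689 ± 204 to 1639 ± 243 in tumor (SD, n = 4 each), by 0.72 on the log2 scale (limma adjusted p = 0.00308). Its relative Rap1b fell by 0.24 (adjusted p = 0.0476), a value that became 0.07 when library trends with GC content and length were removed. Arhgdia, a GDP dissociation inhibitor that keeps Rac proteins soluble, rose from 15424 ± 1359 to 22212 ± 1061 (log2 fold change 0.53, limma adjusted p = 0.00240). Its blood cell relative Arhgdib had -0.18 (adjusted p = 0.0816) and the proton channel gene Hvcn1 0.15 (adjusted p = 0.318). In stroma 8 partners were tested and none was called by limma (1 had an unadjusted p under 0.05), with Rap1a at -1.14 (adjusted p = 0.458).

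**Figure D4:**
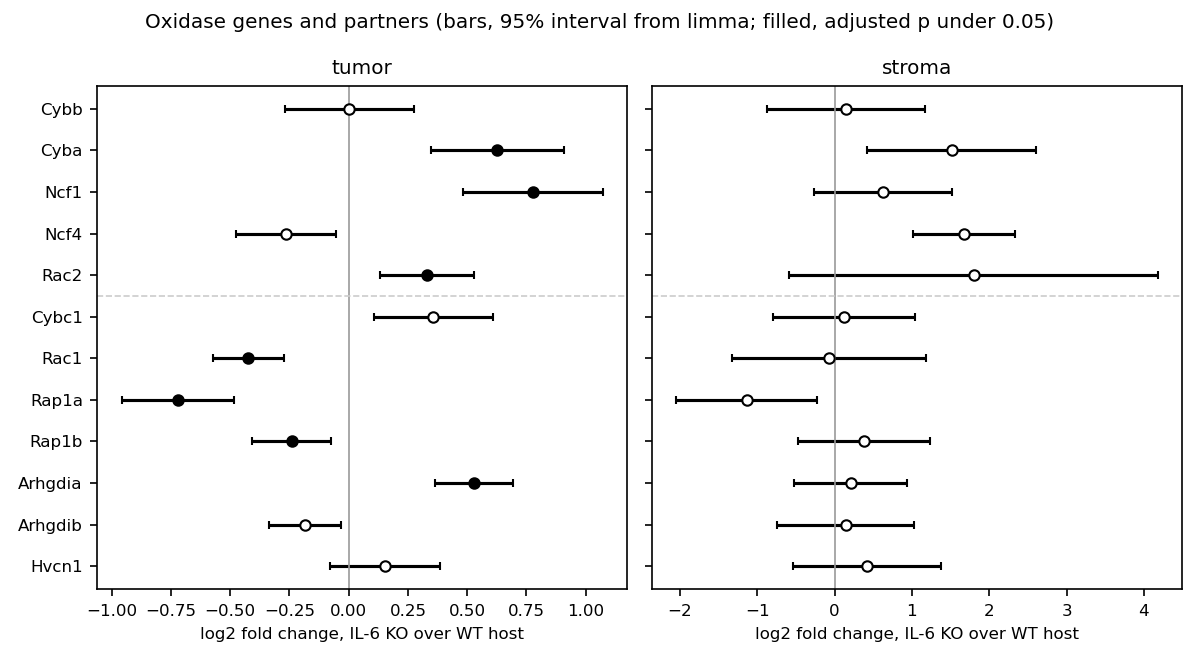
Log2 fold change of IL-6 KO over WT hosts (horizontal axes) with its 95% interval from limma, for the 5 oxidase genes and, under the dashed line, 7 partners, in tumor (left) and stroma (right), which have different scales. Filled points have an adjusted p under 0.05, and they include Cyba, Ncf1, Rac2 and Arhgdia above 0 and Rac1, Rap1a and Rap1b below 0 in tumor, and none in stroma.

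Of the 20 genes for exchange factors, kinases, phospholipases and a kinase regulator tied to Rac or oxidase activation, all were tested in both tables. In tumor 3 were called higher and 1 lower (median log2 fold change 0.11), against 10.6% and 9.16% of all genes tested. Syk, the kinase downstream of Fc and integrin receptors, rose by 0.30 (limma adjusted p = 0.00554). Of the protein kinase C genes, whose products phosphorylate the subunit encoded by Ncf1, Prkcd rose by 0.33 (adjusted p = 0.0135) and Prkca by 0.41 (adjusted p = 0.0488), and Prkcb fell by 0.23 (adjusted p = 0.0490). Prkca lost its call under quantile normalization and Prkcb when library trends were removed. In stroma no gene of this list was called by limma (2 had an unadjusted p under 0.05), and the smallest p-values belonged to Tiam1, a Rac exchange factor (3.24, adjusted p = 0.432), and Pik3r5, a regulator of phosphoinositide kinase (0.88, adjusted p = 0.502).

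Of 14 listed receptor genes of phagocytes, 6 were called higher in IL-6 KO tumor, none lower and 8 were not called. Their median log2 fold change was 0.60, and 10.6% of all genes tested were called higher. The 4 with a value below 0 were the Fc receptor genes Fcgr1 (-0.74), Fcgr4 (-0.47) and Fcgr2b (-0.15) and the endotoxin receptor gene Tlr4 (-0.15), with limma adjusted p from 0.173 to 0.550. Itgb2, the beta chain of the leukocyte integrins, rose from 2081 ± 73.1 to 2738 ± 105 (SD, n = 4 each, 0.40, limma adjusted p = 0.00421). Its alpha partner Itgam, the CD11b gene of myeloid cells, rose from 436 ± 98.1 to 746 ± 70.0 (0.79, adjusted p = 0.00739). Csf2rb, the shared chain of the GM-CSF receptor, rose by 0.63 (adjusted p = 0.0299), and Fpr2, a formyl peptide receptor, from 18.5 ± 7.35 to 48.3 ± 15.7 (1.37, adjusted p = 0.0321). In stroma 12 were tested and none was called by limma, nor did any have an unadjusted p under 0.05, with a median of 0.46 and with Fpr2 at 1.18 (adjusted p = 0.585).

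Of 8 transcription factor genes tied to oxidase expression, 3 were called higher and 1 lower in tumor (median log2 fold change 0.27). The shares over all genes tested in tumor were 10.6% higher and 9.16% lower. Cebpa, a myeloid factor, rose from 16.4 ± 5.13 to 77.9 ± 19.2 (2.20, limma adjusted p = 0.00263) and Cebpe, a factor of granule formation, from 20.0 ± 10.4 to 107 ± 51.5 (2.36, adjusted p = 0.0145). Irf8, an interferon regulatory factor of B cells and monocytes, rose by 0.38 (adjusted p = 0.0115), and Elf1, an Ets factor, fell by 0.23 (adjusted p = 0.0307). The calls of Irf8 and Elf1 were lost when library trends were removed. Spi1, which encodes PU.1, had 0.16 (adjusted p = 0.126). In stroma Cebpa had 1.42 and Elf1 -1.37 (limma adjusted p = 0.432 for each), and no gene of the list was called (2 had an unadjusted p under 0.05).

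Among genes that remove superoxide and peroxide, 17 were tested in tumor, with 5 called higher and 1 lower (median log2 fold change 0.14). Beside this, 10.6% of all genes tested in tumor were called higher and 9.16% lower. The peroxiredoxin gene Prdx5 rose from 4802 ± 328 to 7690 ± 928 (0.67, limma adjusted p = 0.00263) and Prdx2 fell from 7252 ± 694 to 5231 ± 347 (-0.47, adjusted p = 0.00612). Sod1, the cytosolic superoxide dismutase gene, rose by 0.35 (adjusted p = 0.0125) and Gpx1, a glutathione peroxidase gene, by 0.40 (adjusted p = 0.0176), and Gpx1 lost its call when library trends were removed. In stroma none of 18 was called by limma (median -0.13, 2 with an unadjusted p under 0.05), and Gpx1 had -0.92 (adjusted p = 0.502).

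In tumor, 6 of the 12 tested genes tied to the supply of NADPH, the electron donor of the oxidase, were called higher and none lower. Their median log2 fold change was 0.28, and 10.6% of all genes tested in tumor were called higher. G6pdx, the first enzyme of the pentose phosphate pathway, rose from 1349 ± 124 to 1829 ± 135 (0.44, limma adjusted p = 0.0102), and Taldo1 (0.49, adjusted p = 0.0125) and Tkt (0.29, adjusted p = 0.00921) of the same pathway rose with it. Idh2, the mitochondrial isocitrate dehydrogenase gene, rose by 0.39 (adjusted p = 0.00732). With library trends removed, 3 of the 12 were called, and Tkt and Idh2 were not among them. In stroma none of 12 was called by limma (median 0.32, 1 with an unadjusted p under 0.05), with Pgls at 0.97 (adjusted p = 0.507).

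**Figure D5:**
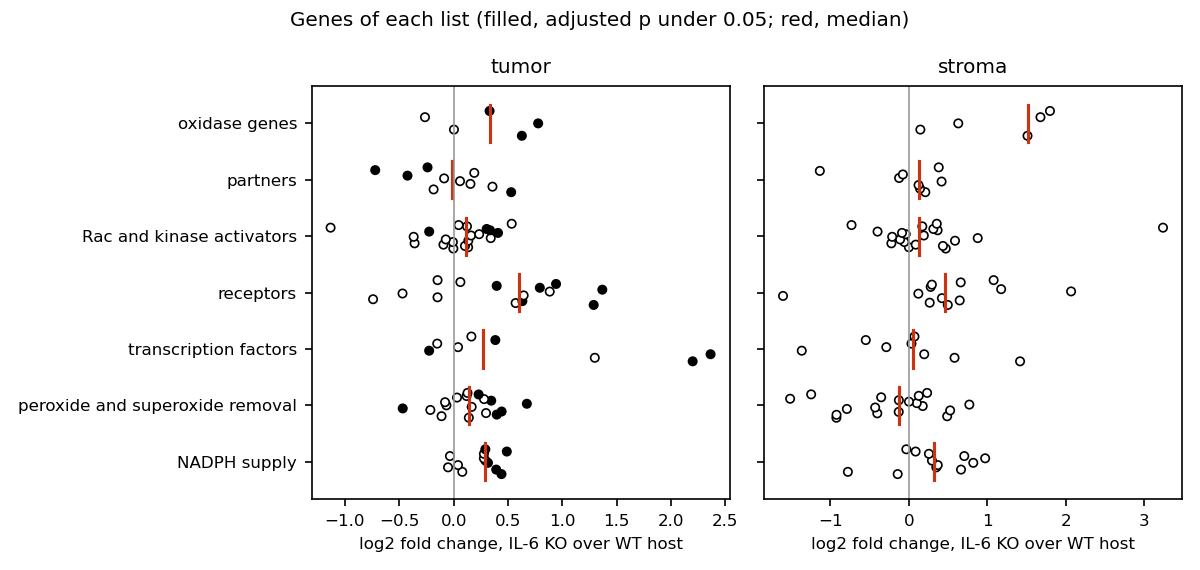
Log2 fold change of IL-6 KO over WT hosts (horizontal axes) of each tested gene in the oxidase and pathway lists (rows) in tumor (left) and stroma (right), which have different scales, with filled points for an adjusted p under 0.05 and red lines for the list medians. In tumor the receptors had the largest median (0.60) and the partners a median of -0.01, and no gene was filled in stroma.

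The genes with the closest profiles over the 8 libraries of a table are given by the root mean square difference of their centred log2 values from those of the oxidase gene. In tumor they were Pelp1 (0.063) for Cyba, Mpeg1 (0.085) and Brms1 (0.098) for Ncf1, and Eif3g (0.040) and Ccdc12 (0.041) for Rac2. Of these only Mpeg1, a perforin-like gene of macrophages, is known as a phagocyte gene. Cybb was closest to Evi2b (0.061) and Gigyf2 (0.070) and Ncf4 to Chd9 (0.064) and Mreg (0.073), from 11237 genes compared. None of the 5 was among the closest pair of another.

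The stroma profiles lay further apart, over 8076 genes compared. Ncf1 was closest to Arhgap45 (0.125) and Syne1 (0.144), Cybb to Rdh12 (0.169) and Clip1 (0.171), Ncf4 to A130014A01Rik (0.239) and Rnaset2a (0.290), and Cyba to Retreg1 (0.240) and Pi16 (0.322). Rac2 had the most distant neighbours, Slc11a1 (0.565), a metal transporter gene of phagosomes, and Tbc1d23 (0.816).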

How the data were processed

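Per the labels and the study's methods, RNA of mCherry+ and mCherry- sorted marrow cells was depleted of ribosomal RNA, sequenced in 75-nucleotide reads, aligned to mm10 and quantified by the authors with Salmon 1.3.0, correcting for sequence and GC bias. The authors normalized the estimated counts with DESeq2 1.28.1 and deposited them as 1 table per sorted population, here treated as a scaled signal (the normalized count). The deposited DESeq2 results, which hold a mean, log2 fold change, statistic and p-values, were not used, and whole reads were not recovered.

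Each table was tested alone as log2(normalized count + 1) with limma 3.58.1 (R 4.3.3, trend over the mean, two-sided), on genes with a mean over 10, with genotype as the only term and Benjamini-Hochberg adjustment over all genes tested (threshold 0.05). An interaction of genotype and population was not fitted, since the tables were normalized separately. Positions, exons and lengths came from GENCODE vM21 on GRCm38, near copies from BLAST 2.17.0, and annotation and figures used Python 3.11.15, pandas 2.3.3, NumPy 2.4.6 and matplotlib 3.10.9.

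The oxidase genes and all lists were chosen with earlier results of these data known. Named were the 5 oxidase genes, up to 4 genes per list and table with the smallest p, the 2 nearest profiles among genes with a mean of at least 50, and the highest markers. Spi1, Fcgr1, Fcgr2b, Fcgr4, Tlr4, C5ar1, Ptafr, Arhgdib, Hvcn1, Cybc1 and the transcripts Rn7s1 and CT010467.1 were named outside this rule, after their values were seen, and results for 2 genes are not reported here. The test was tried on simulated data. Alternatives were other pseudocounts (0.5, 5), filters (over 1, over 50, none), quantile normalization, median centring, array weights, a block for the replicate number, removal of library trends with GC content and length (loess, span 0.3) and leaving out each library.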

Additional observations from a re-analysis of the deposited data

Results flagged for a closer look

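In IL-6 KO tumor, library 2 had a Cyba normalized count of 3849, and its gap to the nearest of the other 3 libraries was 0.838 of the whole range of the group, over Dixon's 95% critical value for 4 values. Of 20 groups of 4 libraries looked at, this was the only one past that value, and chance alone passes about 1 in 20. Without this library the Cyba log2 fold change in tumor was 0.71 against 0.63, and Cyba was called either way.

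Ncf4 had all IL-6 KO libraries below all WT libraries in tumor (log2 fold change -0.26), as did 12.0% of all genes tested there. In stroma all its IL-6 KO libraries were above all WT libraries (1.68), as for 2.54% of all genes tested. The difference between the 2 populations was not tested, because their tables were normalized separately, and neither value passed the adjusted threshold. The summed neutrophil markers were higher in IL-6 KO than in WT mice in both populations by median (16325 against 4912 in tumor, 30699 against 12549 in stroma), and their part in either value was not tested.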

How the results depend on the processing

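In tumor, Cyba and Ncf1 were called higher under all 11 alternatives with all libraries and in all 8 fits that left out 1 library. Rac2 lost its call under quantile normalization (0.25, adjusted p = 0.0611), the replicate block (adjusted p = 0.0573), and the block with library trends removed (0.27, adjusted p = 0.0728), and in 4 fits without 1 library. Ncf4 gained a call as lower with array weights, with trends removed (with or without the block) and without IL-6 KO library 2 (limma adjusted p = 0.0447). The number of oxidase genes called in tumor therefore ran from 2 to 4 against 3, and from 2 to 4 when a library was left out. Cybb turned sign under quantile normalization (-0.062), array weights (-0.033) and leave-one-out fits without WT library 2 or IL-6 KO library 1, 2 or 4 (range -0.13 to 0.084), and stood at 0.26 with trends removed. In stroma, 1 oxidase gene was called with array weights (Ncf4, limma adjusted p = 0.0404) and 0 under every other alternative, and Cybb ran from -0.31 to 0.55 when a library was left out, turning without IL-6 KO library 4. The causes of these changes were not tested.

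Over all genes in tumor, 2870 were called (1542 higher, 1328 lower), 4153 with array weights, 2200 with trends removed (1540 higher, 660 lower), 1808 with trends removed and the block, and 1569 to 3327 when a library was left out, with fewer than 2870 by over 1.5 times without WT library 2 (1791) or 3 (1722) or IL-6 KO library 1 (1617) or 4 (1569). In stroma the count was 1, 4 with array weights, 2 with trends removed and 1 to 3 when a library was left out (2 or 3 without WT library 3 or IL-6 KO library 1, 3 or 4). Libraries of the same number did not deviate together (correlations of -0.02 to -0.00 in tumor and -0.03 to 0.13 in stroma), so the numbers were not taken as pairs. With the replicate block 2 oxidase genes were called in tumor and 0 in stroma, and 2230 genes in all in tumor. In the tumor lists the block took the receptors called higher from 6 to 3 (Csf2rb, C5ar1 and Ptafr were lost, limma adjusted p from 0.0539 to 0.0785). With trends removed as well, it took the receptors to 4. The block took the NADPH supply genes from 6 to 5 and, with trends removed, to 1. The wide spread between stroma libraries limits what they can show, and the depth of single libraries is not given by the normalized values.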
